A study of Nannochloropsis oceanica with 10 samples.

Results

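Of the 10363 genes in the expression tables of *Nannochloropsis oceanica* IMET1, 110 were genes without a named protein whose transcripts were high in the dark and stayed low from 6 h of high light (HL) onwards in wild type (WT). They were chosen from these counts. A gene was taken as uncharacterized where its best protein match was empty or named only as a hypothetical, unknown, uncharacterized, unnamed or predicted protein, which held for 4710 genes. Of these, 2927 had a WT mean of at least 50 normalized counts in the dark, which are read counts divided by a size factor per library. In 126 the dark mean was at least 4 times the mean after 6, 96 and 144 h, and 16 of them were dropped because a dark replicate did not lie above every replicate at these times. The WT levels in the dark and after 6, 96 and 144 h are therefore given as a description, without a test. The *hlr1* libraries and the WT libraries of 1 h took no part in the choice, apart from the size factors.

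mRNA-Seq was done on total RNA of untransformed WT cells and of *hlr1*, a mutant of the same strain with a hygromycin resistance cassette inserted in an exon of *HLR1* (*g4928*), a gene for a light-harvesting protein of photosystem I. The mutant is 1 insertion line, picked from a mutant library for its growth in HL. Both strains were grown at 50 µmol photons per square metre and second, in a light and dark cycle by the labels and in continuous light by the study's methods. Mid-logarithmic cells were kept overnight in the dark at 25 °C and then moved to continuous light of 200 µmol photons per square metre and second, and they were sampled in the dark and after 1, 6, 96 and 144 h. With 3 replicates a, b and c per strain and time there were 30 libraries in 10 groups, and the series text calls the samples of a time point independent sets.

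*Nannochloropsis* is a unicellular eustigmatophyte alga with a plastid of red algal origin, grown for its oil. On a move from darkness to strong light, algae of this kind rebuild their transcript pool, since photosynthesis supplies energy again, while excess excitation damages the photosystems. The level of a transcript is set by both its synthesis and its decay. A gene model that matches only unnamed proteins says nothing of its role, so such genes are usually left out of pathway analyses. In bulk RNA, fewer cells with a transcript and less of it per cell cannot be told apart.

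Library totals ranged from 4424898 to 7019039 counts, and 7184 to 10216 genes had a count. The fewest were found in the mutant, in dark replicate a (7184) and in replicate b of 1 h (7465), and replicates were least alike in WT dark (lowest Pearson r of log counts 0.722, across genes). WT dark replicate c held 13.9% of its counts in 4 adjacent members that match ribosomal RNA (rRNA), against 0.102 to 1.54% in the other 29 libraries. *HLR1* itself was still counted in *hlr1*, at 3286 to 3414 normalized counts after 6 h against 9840 to 10534 in WT, while the strains overlapped after 1 h (3520 to 5608 and 4593 to 5202). Its counts are for the whole gene and do not show whether the product is complete. The 23 genes described as light-harvesting took 1.87 to 4.73% of the counts in every library, and the 32 genes with rRNA in the description took 0.145 to 1.55%. No gene had a best hit in the bacteria searched for, so that these counts cannot show whether bacteria were in the cultures.

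The members were short and little annotated. Their median annotated span was 1185 bases, against 1972 bases for the 2817 other uncharacterized genes with a WT dark mean of at least 50. No protein match at all was listed for 49 members (44.55%) and for 28.8% of those other genes, while for 49 further members the best hit was an unnamed protein of another *Nannochloropsis*. Only 10 members (9.09%) had a UniProt match, against 19.2% of the other genes. Their transcripts were abundant all the same, with a median WT dark mean of 2235 normalized counts against 246.8. However, the required fall favours genes with room to fall. The 122 genes with an informative description that met the same numbers in WT had a higher median, 3264. Together the members took 6.305 to 18.8% of all counts in the WT dark libraries, or 4.97 to 5.72% without *g4368*, *g4369* and *g4370*. After 6 h of HL they took 0.835 to 1.02% in WT.

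Per kilobase of annotated span, the highest WT dark levels were those of *g4368* (161762 normalized counts per kb), *g4945* (63702), *g4369* (48032), *g4370* (18314.5), *g7512* (13480), *g1665* (9982), *g9192* (8560) and *g8686* (8250). Of these, *g4368*, *g4369* and *g4370* belong to the rRNA-matching genes, and their rank rests on WT dark replicate c. *g4945* (scaffold 145, 305628 to 307192, plus strand) has no match in any protein database used and was the most abundant member outside them. Its WT libraries held 103088, 54794 and 141200 normalized counts before the light was turned on, 32323 to 52356 at 1 h, 10982 to 11958 at 6 h, 19335 to 26301 at 96 h and 21062 to 26346 at 144 h. In *hlr1* the values were 103463, 72191 and 135111 for dark cells, 40980 to 49008 at 1 h, 12947 to 17619 at 6 h, 23135 to 26372 at 96 h and 20144 to 22288 at 144 h. In *hlr1* every HL library lay below every dark library. In WT the 1 h libraries did so too, and the later ones did so by the rule. The 6 h libraries were the lowest in both strains.

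The size of the WT fall varied widely between members. The dark mean exceeded the highest of the later means by a median of 5.96 times, and by 87.2 times in *g4472*, 51.7 in *g2891*, 28.4 in *g5531*, 27.9 in *g4368*, 25.8 in *g1598*, 25.6 in *g2884*, 25.5 in *g10227* and 24.6 in *g195*. The members nearest inside the limit were *g1743* at 4.04, *g3792* at 4.06 and *g8855* at 4.07 times, and the uncharacterized genes nearest outside it were *g5938*, *g1072* and *g7576* at 3.99 times. At a limit of 8 times 25 members remained. *g4472*, which matches no known protein, held 2062 to 3224 normalized counts in dark WT cells and 4.92 to 38.1 at 96 h. In *hlr1* it held 460, 1514 and 1827 for dark cells and 4.03 to 8.56 at 96 h. The dark libraries of *hlr1* all lay below those of WT, which had chosen the gene.

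**Figure D1:**
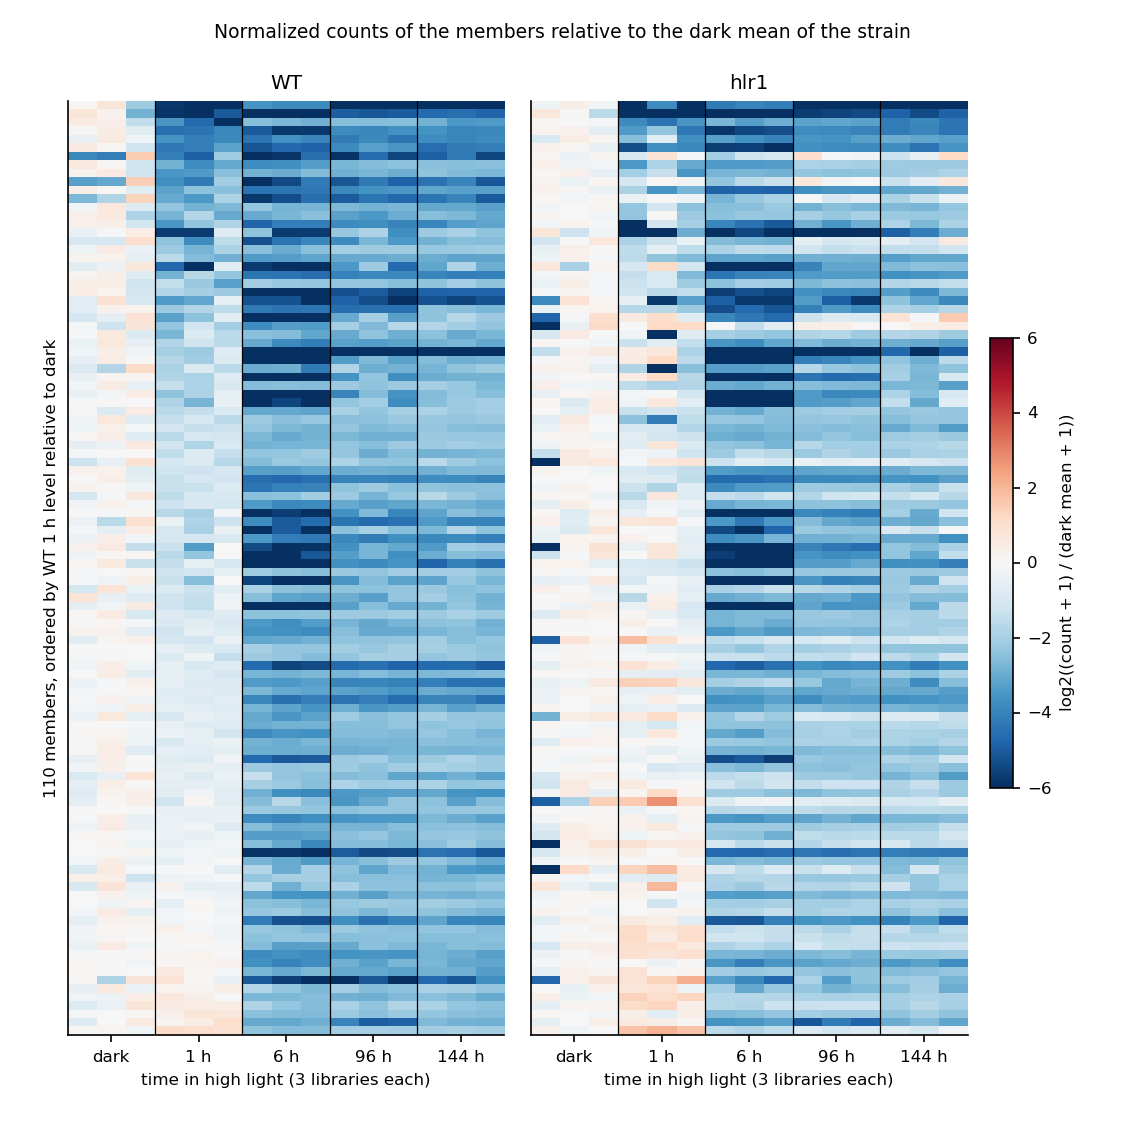
Normalized counts of the 110 members in each of the 30 libraries, as log2 of the value relative to the dark mean of the same strain (1 added to both), with members ordered by their WT level after 1 h relative to dark. Blue is below the dark mean and red above it. The WT blocks of 6, 96 and 144 h are blue by choice of the members, and the *hlr1* blocks, which took no part in the choice, are blue for nearly all members. Dark blue cells in the first column of *hlr1* are members with few or no counts in dark replicate a.

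After 6 h the WT level stood at a median of 10.4% of the dark mean over the members (0.174 to 24.8%), after 96 h at 13.98% and after 144 h at 15.9%. In *hlr1* the medians were 14.2, 17.8 and 22.4%. Over all genes with a dark mean of at least 50 the medians lay between 109 and 112% at these times in both strains. The lowest of the later means was that of 6 h in 77 members in WT and in 79 in *hlr1*.

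The question that the mutant answers for these genes is whether the fall holds in libraries that did not choose them. With the same numbers applied to *hlr1* alone, 54 of the 110 members (49.1%) met them, and 56 did not, against 1.35% of all genes that met them and 0.478% of the 4600 uncharacterized genes that are not members. Of the 122 genes with an informative description that met the numbers in WT, 53 (43.4%) met them in *hlr1*. In WT 2.24% of all genes met the numbers.

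Each time in HL was tested against the dark in *hlr1*, with a gene called at an adjusted p under 0.05 and a fold over 2. After 6 h 95 of the 106 members with enough counts were lower and 0 were higher, where 13.1% of all genes tested were lower and 12.7% higher (edgeR quasi-likelihood test with Benjamini-Hochberg adjustment). After 96 h 91 of 108 were lower and 0 higher, against 10.3 and 9.59% of all genes. After 144 h 87 of 109 were lower and 0 higher, against 8.87 and 8.7%. The median log2 fold changes of the members tested were −2.90, −2.57 and −2.27, beside 0.45, 0.50 and 0.50 over all genes tested. Of the members tested, 8, 2 and 1 passed the filter on low counts only through the dark libraries, which favours a fall in them, and all of these were called lower. Of the other members tested, 87, 89 and 86 were lower. These comparisons share the *hlr1* dark libraries and are not independent of each other, and 86 members were called lower in all of them, where 7.32% of the genes tested in all 3 were.

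Without *hlr1* dark replicate a, the library with the fewest genes counted, 108, 105 and 102 of 110 members were lower at these times, where 22.2, 19.2 and 18.2% of all genes were. Every library of the time lay below every dark library in 99 members after 6 h, in 95 after 96 h and in 93 after 144 h, against 19.1, 17.8 and 15.9% of all genes. In 0 members did every library lie above, against 43.1, 46.7 and 44.6% of all genes.

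**Figure D2:**
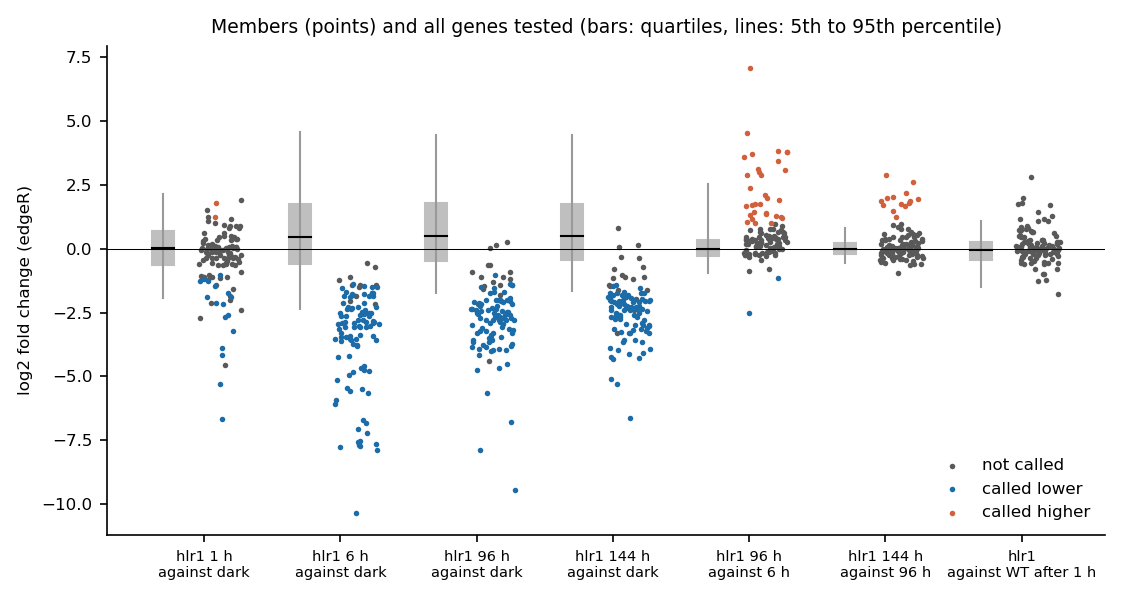
Log2 fold changes (edgeR) of the members in the 7 tests that used no WT library of the rule, as points, with blue for called lower, red for called higher and grey for not called. Grey bars give the quartiles and grey lines the 5th to 95th percentile of all genes tested in the same comparison, with the median as a black line. Most members lie below the lower quartile of all genes at 6, 96 and 144 h, and the fitted values of members with a group at 0 depend on the prior count.

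Among the members with the deepest fall in *hlr1* was *g8890* (scaffold 324, 50477 to 57491, minus strand), whose best hit is a partial hypothetical protein of *N. gaditana*. Its *hlr1* libraries held 3064, 3428 and 3683 normalized counts for dark cells and 20.5, 23.6 and 14.6 after 6 h (log2 −7.53, standard error 0.23, edgeR adjusted p = 5.31e-05). The groups did not overlap. *g4492*, another match to an unnamed *N. gaditana* protein, held 3633, 2003 and 4496 without light and 22.3, 21.0 and 28.2 after 6 h (log2 −7.23, standard error 0.39, edgeR adjusted p = 0.000101). *g8629*, matched to elicitor-responsive protein 1, held 527, 266 and 647 for dark cells and 3.57, 1.68 and 0.86 at 6 h (log2 −7.90, standard error 0.75, edgeR adjusted p = 0.000661). Large fitted falls were also found for *g9678* (log2 −7.75, standard error 0.73), *g8416* (log2 −7.67, standard error 0.45) and *g4472* (log2 −7.66, standard error 0.74). *g8629*, *g9678*, *g8416* and *g4472* passed the filter only through the dark libraries, so that they could be tested only because they were high there, and the size of their fitted falls rests on a few counts.

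In 2 members a group held no count at all. *g7446* had 245, 39.0 and 181 normalized counts in the *hlr1* dark libraries and 0 in all 3 libraries of 6 h, which was at least 179-fold lower (3 counts over the group taken as the floor). It was counted again after 96 h, at 8.82, 17.1 and 16.9. *g8892* had 137, 33.9 and 72.4 in the *hlr1* dark libraries and 0 in all 3 libraries of 96 h, at least 95.7-fold lower by the same floor. Both folds are those of the dark mean, and both genes were tested at these times only through their dark counts. The call of *g8892* at 96 h was lost without any 1 of the 96 h libraries (edgeR adjusted p 0.0616 to 0.0627). The 2 lay at the low end of the members, with WT dark means of 100.003 and 52.1.

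*g10227* (scaffold 354, 686014 to 690966) and *g5018* (scaffold 145, 521798 to 523462), both matched to unnamed *N. gaditana* proteins, were among the 5 members with the deepest falls at 144 h, with *g4472*, *g2884* (log2 −4.34) and *g1665* (log2 −4.29). *g5018* held 5098, 8302 and 5639 normalized counts in the *hlr1* dark libraries and 76.4, 41.9 and 92.3 after 144 h (log2 −6.62, standard error 0.40, edgeR adjusted p = 0.000411). Its 6 h level, 338 to 397, was above that at 96 h, 53.8 to 73.7, and this later fall was itself called (log2 −2.52, standard error 0.15, edgeR adjusted p = 7.12e-14). In WT the order was the same, with 312 to 380 after 6 h and 36.1 to 69.8 after 96 h. *g8686* was the other member called lower at 96 h than at 6 h in *hlr1*, with 658 to 821 and then 235 to 427 (log2 −1.16, standard error 0.14, edgeR adjusted p = 6.76e-08). Without 96 h replicate a its log2 change was −0.98, under the fold of 2.

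The members differed widely in how far they had fallen after 1 h. In WT the 1 h level was a median of 51.3% of the dark mean, from 1.10% in *g5018* to 204% in *g6374*, where the median over all genes with a dark mean of at least 50 was 93.1%. It was under 10% in 6 members, under 25% in 22 and above 100% in 12. All 3 libraries of 1 h lay below all dark libraries in 56 members, where 11.2% of all genes did so, and above them in 3, where 14.1% did so. The WT dark libraries chose the members, so that these values have no test. Between the dark and 6 h, a median of 53.0% of the WT fall was reached at 1 h, over 90% in 14 members and under 10% in another 14, with the others spread in between.

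In *hlr1*, 17 of 110 members were lower after 1 h and 2 were higher, against 1.77 and 0.687% of all genes tested (edgeR). The median log2 change was −0.26, beside 0.02 over all genes. Of the 110, 6 passed the filter only through the dark libraries, *g10227* and *g5018* among them, and 2 of the 6 were called lower, against 15 of the others. The count moved with the libraries. It was 7 without *hlr1* 1 h replicate c, 8 without 1 h replicate a, 9 without dark replicate b and 11 without dark replicate c. With both libraries of few genes left out it was 22. Over all genes 155 were called lower. In the same order this number was 65, 67, 70 and 91, and 223 with both libraries left out. All 1 h libraries lay below all dark libraries in 34 members (10.6% of all genes) and above them in 9 (11.1%).

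The lowest *hlr1* level after 1 h relative to dark was that of *g10227*, which was tested only through its dark counts. Its WT libraries held 5477, 3997 and 464 normalized counts for dark cells and 56.0, 50.6 and 99.6 after 1 h, and its *hlr1* libraries held 6764, 4410 and 1380 and then 67.1, 2.62 and 51.7 (log2 −6.68, standard error 0.93, edgeR adjusted p = 0.00673 in *hlr1*). The groups were apart in both strains, with replicate c the lowest dark library in each. *g6097* held 2359, 2110 and 2035 in the *hlr1* dark libraries and 150, 101 and 191 after 1 h (log2 −3.90, standard error 0.33, edgeR adjusted p = 0.000845). *g682* went from 5678, 5020 and 3535 to 118, 375 and 329 (log2 −4.14, standard error 0.43, edgeR adjusted p = 0.00228). Both match unnamed *N. gaditana* proteins, and both stood low in WT as well, at 4.47 and 7.19%.

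*g1665*, without any match, held 9325, 9691 and 5485 normalized counts in the *hlr1* dark libraries and 767, 1569 and 421 after 1 h (log2 −3.20, standard error 0.45, edgeR adjusted p = 0.00687). The adjusted p was 0.0503 without 1 h replicate a. *g7639* held 4024, 3565 and 2609 and then 919, 291 and 492 (log2 −2.61, standard error 0.41, edgeR adjusted p = 0.0109, and 0.0602 without 1 h replicate c). *g5018* was the lowest of all members relative to dark in WT, at 29.9 to 76.6 after 1 h from 1018 to 7521. It too was tested only through its dark counts, and its *hlr1* libraries of 1 h spread from 5.75 to 464 (log2 −5.29, standard error 1.15, edgeR adjusted p = 0.0461), and the call was lost without any 1 of 5 of the 6 libraries. The direction was the same in every library of these 3 genes.

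A few members stood above their dark mean at 1 h before they fell. *g6374*, matched to an SH3 domain protein (such domains bind proline-rich stretches of other proteins), held 3110, 3339 and 2539 normalized counts in dark WT cells, 6628, 6049 and 5675 at 1 h and 490 to 560 at 6 h. In *hlr1* it held 2018, 1407 and 1687 for dark cells and 5541, 7146 and 5656 after 1 h (log2 1.82, standard error 0.21, edgeR adjusted p = 0.00288). Every 1 h library was the highest of its strain's course. *g2144*, matched to the peptidyl-prolyl isomerase FKBP62, a large immunophilin that works with HSP90 in plants, held 5285, 3271 and 3552 in the *hlr1* dark libraries and 10599, 8434 and 10019 after 1 h (log2 1.24, standard error 0.22, edgeR adjusted p = 0.0181). Leaving out any 1 of 4 of the 6 libraries ended this call (edgeR adjusted p 0.0681 to 0.108). *g8686* and *g3522* stood at 151% of dark in WT after 1 h and at 129 and 107% in *hlr1*, where neither was called. In WT the 1 h libraries of *g8686* overlapped the dark ones, while those of *g3522* lay above them.

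**Figure D3:**
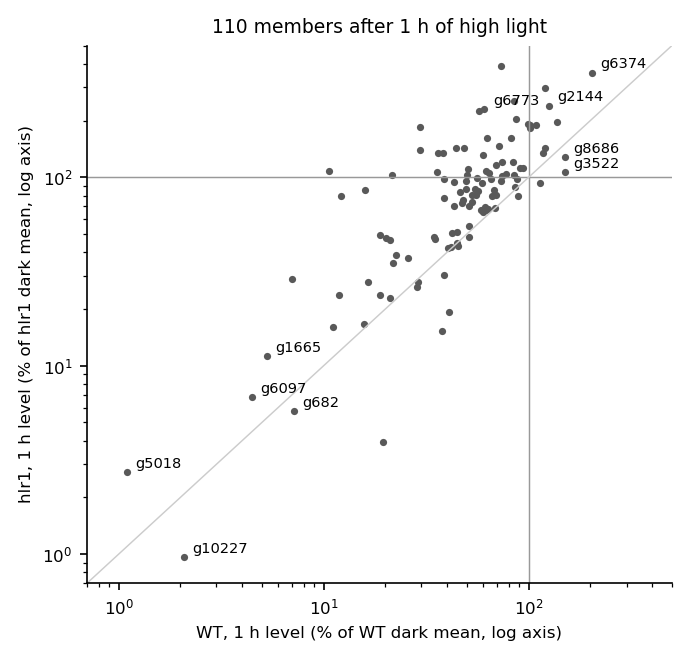
Level of each of the 110 members after 1 h of HL as a percentage of the dark mean, in WT (x axis) and *hlr1* (y axis), both on log axes, with grey lines at 100% and along equal values. The points run from about 1% (*g5018* and *g10227*) to 204% in WT (*g6374*) and 391% in *hlr1* (*g721*), and more of them lie above the diagonal, where the *hlr1* dark means, lower than those of WT in 81 members (73.6%, against 56.9% of all genes with a WT dark mean of at least 50), are the denominators. The rule chose members for high WT dark values.

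The strains were tested against each other only after 1 h, where no library had chosen the members. No member was called in *hlr1* against WT (0 of 109), and neither was any of the 8944 genes tested (0% lower and 0% higher, edgeR). At an unadjusted p under 0.05 there were 9 members and 260 genes, and DESeq2 called 0 members and 5 genes. The member log2 differences had a median of 0.02 and ran from −1.78 to 2.82. *g6758*, without a match, held 771, 461 and 2399 normalized counts in WT and 3980, 6583 and 2441 in *hlr1*, which did not overlap (log2 1.79, standard error 0.56, edgeR adjusted p = 0.998).

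After 6 h the later course differed between members. Between 6 and 96 h in *hlr1*, 32 of 106 members were higher and 2 lower, where 9.53 and 4.3% of all genes tested were (edgeR). The median log2 change was 0.43, beside 0.01 over all genes. Of the 106, 8 passed the filter only through the 96 h libraries, which favours a rise, and all 8 were called higher, while 24 of the others were. Without the rRNA-matching *g4367* to *g4370*, 28 members were higher. Every 96 h library of *hlr1* lay above every 6 h library in 65 members, against 28.3% of all genes. Of the 32, the WT mean was also higher at 96 h in 31, and in 27 every WT library of 96 h lay above every library of 6 h (50 of all members and 25.1% of all genes), a description since the rule used both times. With 1 library left out, 31 to 34 members were called in either direction.

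*g327*, without a match, showed this course. Its *hlr1* libraries held 2353, 2141 and 3070 normalized counts for dark cells, 61.5, 74.1 and 48.8 at 6 h and 516, 480 and 478 at 96 h. The fall to 6 h had a log2 change of −5.45 (standard error 0.25, edgeR adjusted p = 6.56e-05) and the rise to 96 h one of 3.03 (standard error 0.14, edgeR adjusted p = 3.27e-16). *g4492* went from 21.0 to 28.2 at 6 h to 233, 200 and 175 at 96 h (log2 3.11, standard error 0.20, edgeR adjusted p = 6.42e-13), and *g8890* from 14.6 to 23.6 to 154, 134 and 142 (log2 2.90, standard error 0.23, edgeR adjusted p = 3e-11). All 3 stayed below the dark libraries at 96 h. In WT *g8890* held 33.1 to 43.4 after 6 h and 770.5, 1755 and 729 after 96 h.

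Between 96 and 144 h in *hlr1*, 14 of 107 members were higher and 0 lower, where 2.81 and 0.357% of all genes were (edgeR). Of the 107, 1 (*g4472*) passed the filter only through the 144 h libraries, which favours a rise. It was called higher, as were 13 of the others. The 14 were *g3365*, *g3439*, *g4472*, *g4492*, *g54*, *g6758*, *g6890*, *g7210*, *g8416*, *g8629*, *g8686*, *g8890*, *g9678* and *g10291*. The count was 1 without *hlr1* 96 h replicate c, 4 without 96 h replicate a or b and 8 without 144 h replicate a. It was 4 with all 30 libraries in 1 fit. Over all genes 276 were called higher. This number was 15, 38 and 53 without 96 h replicates c, a and b, 85 without 144 h replicate a and 40 in the 1 fit. *g8890* held 883, 514 and 1764 normalized counts after 144 h against 134 to 154 after 96 h (log2 2.88, standard error 0.38, edgeR adjusted p = 0.00475, and 0.0563 without 96 h replicate c). *g4492* held 854, 419 and 1480 against 175 to 233 (log2 2.18, standard error 0.37, edgeR adjusted p = 0.00933, and 0.0546 to 0.0733 without any 1 of the 96 h libraries). *g54* held 316, 187 and 571 against 77.1 to 109 (log2 2.01, standard error 0.36, edgeR adjusted p = 0.0102, and 0.0546 to 0.0752 without any 1 of the 96 h libraries). In each of these 3 the groups did not overlap, and replicate c was the highest and replicate b the lowest library of 144 h.

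Replicate c was the highest library for most of the 14, and in some other groups too most of them shared a highest library. At 144 h in *hlr1*, replicate c was the highest library for 12 of the 14, against 46.9% of the other 96 members and 41% of all genes. In WT after 1 h replicate c was the highest for all 14, against 38.5% of the other members and 31.1% of all genes. After 96 h in WT it was replicate b for 12 (33.3 and 37.4%), in the *hlr1* dark replicate c for 13 (25 and 36.8%) and after 1 h in *hlr1* replicate b for 12 (42.7 and 30.3%). It was replicate b for 10 after 144 h in WT and replicate c for 9 in the WT dark. No library was shared by most in WT after 6 h (4, 5 and 5 for a, b and c) or in *hlr1* after 6 h (6, 4 and 4), and after 96 h in *hlr1* it was replicate a for 8, b for 4 and c for 2. The 14 were picked for their level at 144 h in *hlr1*, and this count was looked at after their values were seen, so that it has no test. WT 1 h replicate c was at a median of 0.79 above its group mean for the 14 on the log2 scale and at 0.00 for the other 96. *hlr1* 144 h replicate c was at 0.64 and 0.03, and replicate b at −0.96 and −0.02.

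**Figure D4:**
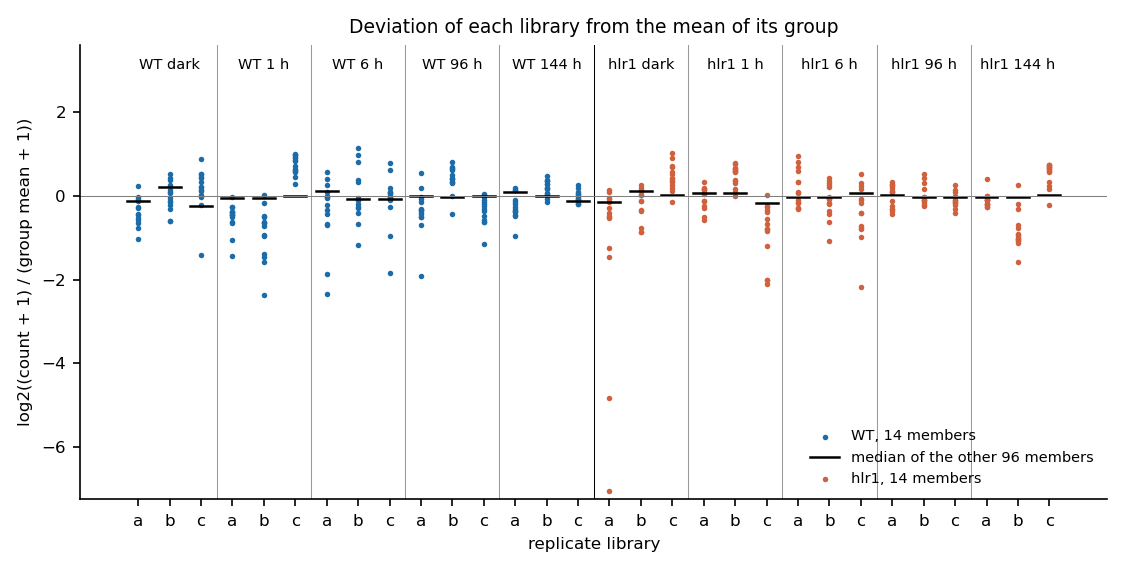
Deviation of each library from the mean of its group, log2((count + 1) / (group mean + 1)), for the 14 members called higher at 144 h than at 96 h in *hlr1* (points, WT blue and *hlr1* red), with the median of the other 96 members as black lines. In WT 1 h replicate c all 14 points lie above the group mean, and in *hlr1* 144 h replicate b most lie below it, while the black lines stay near 0.

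The 14 members not called lower in *hlr1* at any of 6, 96 and 144 h had low counts. The 10 most abundant were *g3855*, *g1990*, *g5016*, *g2002*, *g5306*, *g3924*, *g7210*, *g10291*, *g4220* and *g3393*, with WT dark means of 192 to 611. The others were *g2891*, *g5487*, *g721* and *g1598*. In 12 of the 14, *hlr1* dark replicate a was the lowest dark library, and in 10 it held under 5 normalized counts. *g3855*, matched to an unknown *Ectocarpus* protein, held 0, 274 and 292 in the *hlr1* dark libraries and 77.6 to 114 after 6 h (log2 −1.11, standard error 1.54, edgeR adjusted p = 0.607). *g1990*, which has a COG entry as its only other annotation, held 36.8, 348 and 418 and then 52.6 to 77.5 (log2 −2.17, standard error 0.90, edgeR adjusted p = 0.116). Both overlapped the dark through replicate a alone. Without that library 11 of the 14 were called lower at all 3 times and 1 at 2 of them, and *g3924* and *g721* at none. Over all members, 6 had no count in *hlr1* dark replicate a and none lacked a count in b or c.

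**Figure D5:**
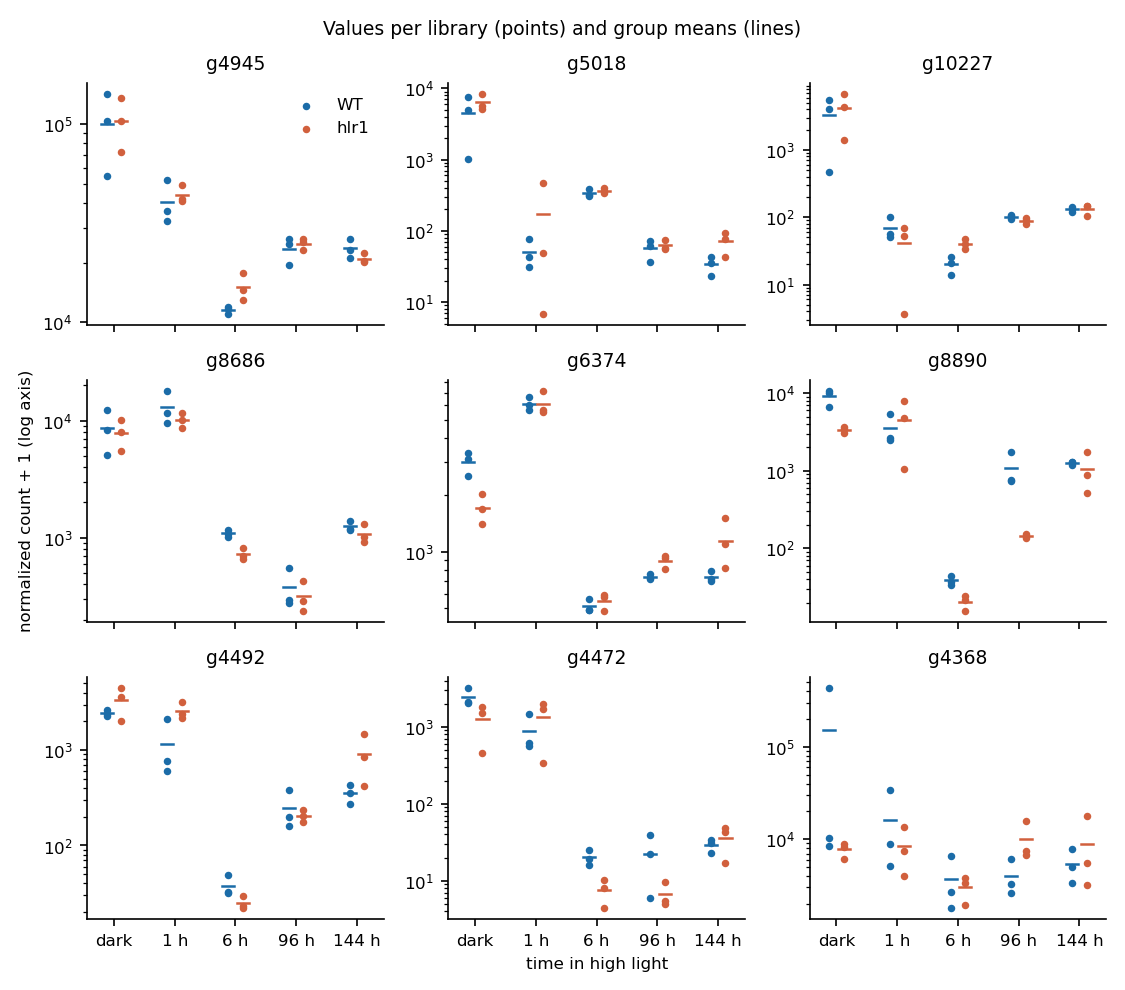
Normalized counts plus 1 (log axis) of 9 members in each library, WT in blue and *hlr1* in red, with the group means as short lines. *g5018* and *g10227* had fallen by 1 h, and *g6374* and *g8686* by 6 h and not by 1 h. *g8890* and *g4492* rose again after 6 h, and *g4368* was high in 1 WT dark library only. *g4472* stayed far below its dark libraries from 6 h, although in *hlr1* it was called higher at 144 h than at 96 h.

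The members *g4367*, *g4368*, *g4369* and *g4370* are neighbours on scaffold 127 (586100 to 596265) with 2 to 94 bases between them. Their best nucleotide matches are 18S rRNA genes of *Nannochloropsis* or, for *g4370*, a transcript antisense to rRNA, although the series text says that rRNA was excluded, so that reads of rRNA left in the libraries and reads of these genes cannot be told apart, and the protein matches of the gene models are uncertain. *g4370* is also matched to the alpha subunit of the mitochondrial processing peptidase, which cleaves targeting sequences from imported proteins. *g4368* held 10255, 8427 and 436031 normalized counts in the WT dark libraries, against 8324, 6179 and 8816 in the *hlr1* dark libraries. Only WT dark replicate c stood apart.

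With that library the WT dark means of *g4367* to *g4370* were 6.37, 27.9, 21.4 and 21.1 times the highest later mean, and without it 3.14, 1.72, 2.40 and 4.63 times, so that *g4370* alone still met the numbers. In *hlr1* all 4 were lower after 6 h, although the call of *g4367* was lost without any 1 of the 6 h libraries (edgeR adjusted p 0.0737 to 0.0782). *g4368* went from the dark values above to 1918, 3313 and 3766 after 6 h (log2 −1.47, standard error 0.28, edgeR adjusted p = 0.01) and held 15770, 7480 and 6790 after 96 h. None of the 4 was called after 96 or 144 h, when *g4368* overlapped its dark libraries. Without the 4, 91 members were lower after 6 h, 91 after 96 h and 87 after 144 h. Over all members, 95 met the rule without WT dark replicate c and 15 did not, while 30 other genes did.

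The few other members with a named match belong to separate processes. *g3522* is matched to small nuclear ribonucleoprotein G, a part of the Sm ring of spliceosomal particles. Its *hlr1* libraries held 5088 to 6239 normalized counts in the dark and 905 to 1152 after 6 h (log2 −2.59, standard error 0.15, edgeR adjusted p = 0.00011), and its WT libraries 4695 to 5238 and then 784 to 854. *g6160*, matched to UFD1, which helps the Cdc48 segregase handle ubiquitinated proteins, held 1275 to 1385 in the *hlr1* dark libraries and 170 to 213 after 6 h (log2 −2.89, standard error 0.16, edgeR adjusted p = 0.000106). In *hlr1* all libraries of 6, 96 and 144 h lay below all dark libraries for both genes, which in WT the rule required.

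*g4133*, matched to the large-subunit ribosomal protein L7, held 1760 to 2452 normalized counts in the *hlr1* dark libraries, 2150 to 2554 after 1 h and 603 to 800 after 6 h (log2 −1.72, standard error 0.19, edgeR adjusted p = 0.00108). *g8242*, matched to an inositolphosphotransferase that forms inositol phosphorylceramide, held 1997 to 2567 and after 6 h 625 to 700 (log2 −1.87, standard error 0.14, edgeR adjusted p = 0.000226). *g1711*, matched to a chloroplast protein like fatty acid desaturase 4, an enzyme that in *Arabidopsis* places the trans double bond in plastid phosphatidylglycerol, held 296 to 393 and then 9.41 to 21.4 (log2 −4.57, standard error 0.56, edgeR adjusted p = 0.00189). It had a WT 1 h level of 18.8% of dark, the lowest of these 3. *g513*, matched to the low-salt glycan biosynthesis protein Agl8, held 813 to 1916 and then 216 to 277 (log2 −2.49, standard error 0.35, edgeR adjusted p = 0.00322). These names come from single matches and were not tested otherwise.

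By keywords in the annotation other than the protein description, 6 members fell under membrane and transport, 4 under protein folding and turnover, 3 under lipid, 2 each under nucleic acid binding and redox, 1 each under photosynthesis and plastid, sugar and cell wall, and cytoskeleton and cilium, and 0 under kinases and phosphatases. The shares ran from 0 to 5.45% of the members and from 0.852 to 7.7% of the other uncharacterized genes. A gene could count under several keywords. Most members matched none.

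The members lay on 36 of 290 scaffolds, with at most 8 on 1 scaffold. Outside the rRNA-matching genes, 4 pairs of members were direct neighbours. Of these, *g8332* and *g8333* (134 bases apart), *g3575* and *g3576* (304 bases) and *g5530* and *g5531* (584 bases) are read away from each other, as are 34.5% of all neighbouring gene pairs, and *g8629* and *g8630* (49 bases) are read towards each other. *g5530* held 8199, 5739 and 5992 normalized counts in the *hlr1* dark libraries and 613, 1762 and 817 after 1 h (log2 −2.68, standard error 0.37, edgeR adjusted p = 0.00653). Its neighbour *g5531* held 2214, 2651 and 2198 and then 1012, 796 and 836 (log2 −1.45, standard error 0.24, edgeR adjusted p = 0.0132, with 0.0675 when dark replicate b was left out and 0.0623 when 1 h replicate c was). After 6 h *g5531* was the lower of the pair, at 44.6 to 60.6 against 624 to 678 for *g5530*. Both are matched to unnamed *N. gaditana* proteins.

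The pair *g8629* and *g8630* differed in course. *g8630* held 1307 to 1485 normalized counts in the *hlr1* dark libraries, 239 to 272 after 6 h and 292 to 299 after 96 h, and was not called between these times. *g8629* rose from 0.86 to 3.57 after 6 h to 45.0, 47.1 and 54.05 after 96 h (log2 4.56, standard error 0.48, edgeR adjusted p = 8.34e-09), where it was tested only through its 96 h counts. The sources used here do not say whether counting used strand, and reads of neighbours that overlap on opposite strands would not be told apart without it. *g1598* and *g7210*, on different scaffolds, share the same best hit of *N. gaditana*, and reads could be split between them. Their WT 6 h libraries held 0 to 1.78 and 0 to 1.74 normalized counts, from 24.4 to 155 and 163 to 617 in the dark.

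Genes with an informative description that met the same numbers in WT also fell in *hlr1* in most cases. Of these 122 genes, 118 were lower after 6 h, 115 after 96 h and 101 after 144 h, with median log2 changes of −2.83, −2.46 and −2.05. Of the uncharacterized genes that are not members, 10.3, 7.79 and 6.5% of those tested were lower at these times. After 1 h 16 of the 122 were lower in *hlr1* (13.1%), beside 15.5% of the members, and between 6 and 96 h 30 were higher (24.6%), beside 30.2% of the members tested. A difference between these sets was not tested.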

How the data were processed

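The authors deposited 5 tables, 1 per time, each holding read counts per gene for 3 WT and 3 *hlr1* libraries. Per the submitters' processing notes, reads were mapped with TopHat2 2.0.12. Counter, strand use and genome build: not given in the sources used here. Deposited counts were taken unchanged. The tables also hold group means, fold changes, p-values and calls of the authors, which were not used. Replicates differed by more than counting noise, so none was counted as a copy. A p-value weighs the difference between the groups compared against the spread among their replicate libraries.

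For the rule and for levels, counts were divided by median-of-ratios size factors from 5571 genes above 0 in all 30 libraries. Tests used edgeR 4.0.16 in R 4.3.3 on the 2 groups compared: filterByExpr (minimum count 10), TMM, quasi-likelihood fit, Benjamini-Hochberg over all genes tested. The test was checked on simulated counts. Alternatives were DESeq2 1.42.0, library totals, other filters and folds, all groups in 1 fit, the replicate letter as a block and libraries left out.

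Named genes are members with the highest dark level per kb, the largest WT ratio, the deepest *hlr1* falls, none of the calls, adjacent positions, a named match, values nearest the limit or extreme WT 1 h ratios, or a mention in the study (the 8, 5, 10, 12 and 3 highest ranked where a part of this rule is ranked). *g682*, *g7639*, *g4492*, *g54*, *g327*, *g1711*, *g6758* and *g6773*, and the replicate pattern of 14 members, were picked once values had been seen. The members, lists and tests were chosen with earlier results of these data known. Pfam entries were not used, since 10158 genes have one. Sequences were not analysed here.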

Additional observations from a re-analysis of the deposited data

Results flagged for a closer look

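*g6773*, which matches no known protein, moved in opposite directions in the strains after 1 h. Its WT libraries held 1045, 1265 and 1629 normalized counts in the dark and 900, 748 and 748 after 1 h, all below the dark libraries and 60.8% of the dark mean. Its *hlr1* libraries held 321, 356 and 657 and then 1200, 1174 and 705, all above (log2 1.16, standard error 0.39, edgeR adjusted p = 0.218 in *hlr1*). The rise in *hlr1* was not called, and the choice of members for high WT dark values favours a fall in WT. The difference between the strains in this change was not tested, since the WT dark libraries chose the members. *g6773* was the only such case among the 110 members. Over all genes, every 1 h library lay below every dark library in 11.2% in WT. In *hlr1*, every 1 h library lay above every dark library in 11.1%. The share of all genes that did both was not counted, so that this case says nothing of the members as a set.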

How the results depend on the processing

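The number of members depends on the scaling and the fold. It was 110 as chosen, 173 with TMM factors, 68 with library totals, 195 at a fold of at least 3 and 25 at a fold of at least 8, and 104 to 133 with 1 WT library left out. In *hlr1* 54 met the numbers, 17 at a fold of at least 8, and 49 to 61 with 1 library left out. For members lower in *hlr1* after 1 h (17), the replicate letter as a block gave 9, all 30 libraries in 1 fit gave 26, and leaving out 1 library gave 7 to 14. For members called between 6 and 96 h (34), adjusted p alone gave 72. Between 96 and 144 h (14), all 30 libraries in 1 fit gave 4, adjusted p alone gave 33, and leaving out 1 library gave 1 to 17. The counts lower after 6, 96 and 144 h (95, 91 and 87) stayed within 1.5 times, with 84 to 108, 77 to 105 and 65 to 102 for 1 library left out, and the 0 calls between the strains after 1 h did not move.

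The letters a, b and c did not pair the samples (Pearson r of deviations −0.05 to 0.16 between groups, across genes), and with the letter as a block 83, 76 and 75 members were lower at these times. With library totals the median log2 change of all genes moved from 0.45, 0.50 and 0.50 to 0.77, 0.87 and 0.76, the split of lower and higher genes after 6 h from 1234 and 1195 to 912 and 1705, after 96 h from 1002 and 933 to 624 and 1453, and after 144 h from 864 and 847 to 597 and 1128, while 93, 85 and 80 members were still lower. Calls of all genes after 1 h went from 155 lower and 60 higher to 51 and 14 with the block. Of 2355 alternatives for 185 single-gene results, 2165 kept direction and side of the threshold, 179 were no longer past it, 11 were newly past it and none changed direction. The cause of these shifts was not tested. Members with a few counts per library in HL are known only to within counting error.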
